A study of Mus musculus with 60 samples.

Results

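Heat shock proteins and J-domain (DnaJ) chaperones were followed through 60 RNA-Seq libraries of mouse brain. The members are the entries of the deposited tables whose gene symbol starts with Hspa, Hspb, Hspd, Hspe, Hsph, Hsp90 or Dnaj, without the 11 entries that hold "-ps" in the symbol. This rule gave 74 genes of 47597 entries, 29 of them in the heat shock families and 45 in the Dnaj families. The C57BL/6N mice were 3 months old and came from lines with an altered Htt, the gene of huntingtin. In the Δ12 line, +/+, Δ12/+ and Δ12/Δ12 mice carried 0, 1 or 2 alleles with a deletion within exon 12, and in the KO line +/+ mice were compared with KO/+ mice, which carried 1 Htt allele that had lost the splice donor of this exon. Each genotype was labelled striatum and cortex, with 3 males and 3 females, which made 10 groups of 6 libraries. Levels are given as FPKM, in which the fragments of a gene are set against its length and the size of the library, after division by a factor for each library (0.761 to 1.38), and are called rescaled FPKM here. The tables give no counts, and the labels do not say whether the libraries labelled striatum and cortex with the same mouse number came from the same animal.

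Chaperones bind unfolded stretches of other proteins and keep them from aggregating. Hsp70 proteins (the Hspa genes) bind and release such stretches with ATP, J-domain proteins (the Dnaj genes) bring them their clients and start ATP hydrolysis, and nucleotide exchange factors such as Hsph1 reset the cycle. Hsp90 proteins mature signalling proteins, the chaperonin Hspd1 folds proteins inside a ring closed by its lid Hspe1, and small heat shock proteins (most Hspb genes) hold unfolded proteins without ATP. Heat shock factor switches on part of the cytosolic and mitochondrial genes, while part of the genes of the endoplasmic reticulum (ER) follow the unfolded protein response. In neurons, chaperones of this system uncoat clathrin vesicles and keep synaptic vesicle proteins folded.

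The tissue labels could not be used to describe the brain region. Libraries with more than 100 FPKM of Slc17a7, the vesicular glutamate transporter of cortical excitatory neurons, are called cortex-like here (30 libraries, 121 to 234 FPKM as deposited) and the others striatum-like (30 libraries, 4.81 to 64.8 FPKM). Drd2, a dopamine receptor of striatal projection neurons that the rule did not use, was at most 18.5 FPKM in the cortex-like and at least 29.4 FPKM in the striatum-like libraries. Of the 60 libraries, 30 were in the class of their labelled tissue, and in 30 the sex-linked transcripts Xist and Ddx3y went with the labelled sex. The KO line gave 24 libraries, all striatum-like, and the +/+ and Δ12/+ mice of the other line gave 24, all cortex-like, so that class and line cannot be told apart in them. Only the Δ12/Δ12 group held both, with 6 cortex-like libraries, all labelled male, and 6 striatum-like libraries, all labelled female. Between 14912 and 21767 entries were above 0 in the cortex-like and between 21014 and 22060 in the striatum-like libraries, and entries with the status HIDATA (too many fragments) occurred in 30 of 30 cortex-like and 0 of 30 striatum-like libraries. In bulk tissue, fewer cells of a type and less RNA per cell cannot be told apart.

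Sequences before the start sites of members are shown first because the best known switches of this gene group lie there. They come from RefSeq promoters (GRCm38.p6), which held 77 windows, each from 250 bases before to 50 after a start, for 60 of the 74 symbols. A heat shock element of 3 units, GAANNTTCNNGAA or TTCNNGAANNTTC on either strand, occurred in 0.603% of all 32851 windows and in 6 of the 77 windows of members, which belonged to Dnajb6, Hspd1, Hspe1 and Hsph1. In Hsph1 it lay after the start. The window of Hspe1 and that of Hspd1, its neighbour on the other strand, hold the same stretch with 2 overlapping matches, shown here in capitals on each gene's own strand up to the last base before the start (chr1:55087978-55088147, plus strand, and chr1:55087933-55088102, minus strand). Another start of Hspd1 had 0 matches.
Hspe1: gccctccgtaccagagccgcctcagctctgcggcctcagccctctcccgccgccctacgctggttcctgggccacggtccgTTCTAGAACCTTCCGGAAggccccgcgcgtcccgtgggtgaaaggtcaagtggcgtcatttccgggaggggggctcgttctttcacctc
Hspd1: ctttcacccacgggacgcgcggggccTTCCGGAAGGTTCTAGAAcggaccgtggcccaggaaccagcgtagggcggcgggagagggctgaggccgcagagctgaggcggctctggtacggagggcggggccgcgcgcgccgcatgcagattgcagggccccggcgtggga

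The ER stress response element, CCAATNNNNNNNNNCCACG on either strand, occurred in 0.119% of all windows and in 3 windows of members, those of Hspa5, Hsp90b1 and Dnajc3, whose products work inside the ER. It is in capitals in chr2:34771970-34772089 (Hspa5, plus strand), chr10:86705445-86705684 (Hsp90b1, minus strand, 2 matches) and chr14:118937792-118937931 (Dnajc3, plus strand).
Hspa5: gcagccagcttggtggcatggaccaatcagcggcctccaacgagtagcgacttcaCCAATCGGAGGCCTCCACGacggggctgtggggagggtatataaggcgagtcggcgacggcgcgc
Hsp90b1: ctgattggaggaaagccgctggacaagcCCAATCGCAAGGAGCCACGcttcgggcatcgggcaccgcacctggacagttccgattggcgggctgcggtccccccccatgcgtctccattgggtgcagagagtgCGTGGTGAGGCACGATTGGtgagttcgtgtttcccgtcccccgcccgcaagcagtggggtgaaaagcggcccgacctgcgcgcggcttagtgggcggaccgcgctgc
Dnajc3: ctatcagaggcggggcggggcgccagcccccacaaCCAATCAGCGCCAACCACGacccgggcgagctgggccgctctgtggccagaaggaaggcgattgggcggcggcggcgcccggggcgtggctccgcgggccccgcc
A match is a description of the letters and does not show that a factor bound there. Of the genes with a match, Hspe1 and Hspa5 were higher and Hsp90b1 and Dnajc3 lower in every cortex-like than in every striatum-like library. In Hspd1, Hsph1 and Dnajb6 the classes overlapped. Of all entries, 16.9% were higher and 19.3% lower in this way. Whether the matches have a part in these differences was not tested.

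The levels of the members spanned a wide range. Hsp90ab1, the constitutive cytosolic Hsp90, was the highest, at 190 ± 30.0 rescaled FPKM (SD, n = 30) in the cortex-like and 240 ± 16.8 (n = 30) in the striatum-like libraries. Hspa8, the constitutive cytosolic Hsp70, stood at 116 ± 21.0 and 85.2 ± 10.5, and Hspa5 (BiP), the Hsp70 of the ER, at 114 ± 18.4 and 58.2 ± 8.59 rescaled FPKM. These 3 genes held between 26.9% and 36.4% of the summed level of all 74 members in a cortex-like library, and between 29.4% and 34.3% in a striatum-like one. The heat-inducible Hsp70 genes were low. Hspa1a was at 0.967 ± 0.213 rescaled FPKM in the cortex-like and 1.12 ± 0.521 in the striatum-like libraries, and Hspa1b at 1.19 ± 0.377 and 0.911 ± 0.596. Hspa1a and Hspa1b are near-identical copies, so that the split of fragments between them is uncertain. Their highest values in the striatum-like class, 3.65 and 3.74, came from the same library, the one labelled cortex KO/+ female 1.

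Of the 74 members, 64 had an average level of 0.5 rescaled FPKM or more across all 60 libraries and were tested. The other 10 were Hspb2, Hspb7, Hspb9, Hspa1l, Dnajb7, Dnajb8, Dnajb13, Dnajc5b, Dnajc5g and Dnajc22, and Dnajc5g was listed at 0 in 60 of 60 libraries. Of the 8 genes listed as germ line chaperones, 2 passed this minimum, Hspa2 and Dnajb3. Hspb3, a small heat shock protein of muscle, passed it only through the cortex-like libraries, with 1.20 ± 0.555 against 0.142 ± 0.165 rescaled FPKM.

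By family, the summed Hspa level was 369 ± 35.7 rescaled FPKM in the cortex-like and 285 ± 21.2 in the striatum-like libraries, while the 3 Hsp90 genes summed to 252 ± 32.9 and 337 ± 20.9. Hsph1 (Hsp110), the only Hsph gene, had 38.4 ± 5.94 and 50.6 ± 6.17. The 28 Dnajc genes summed to 372 ± 29.9 and 299 ± 7.79, the 13 Dnajb genes to 121 ± 9.93 and 138 ± 9.84, and the 4 Dnaja genes to 93.5 ± 8.84 and 51.3 ± 2.71 rescaled FPKM. The Hspb prefix gathers unlike genes. Its sum of 91.7 ± 11.1 against 32.6 ± 2.23 was carried by Hspbp1, which is a nucleotide exchange factor of Hsp70 and not a small heat shock protein, at 74.7 ± 10.4 against 20.3 ± 2.17 rescaled FPKM. Among the small heat shock proteins with the Hspb prefix the highest was Hspb8, a partner of Bag3 in selective autophagy, at 9.23 ± 2.10 and 4.21 ± 0.703. Cryab, a small heat shock protein without the prefix and so no member, was at 17.0 ± 3.17 and 32.8 ± 4.12.

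**Figure D1:**
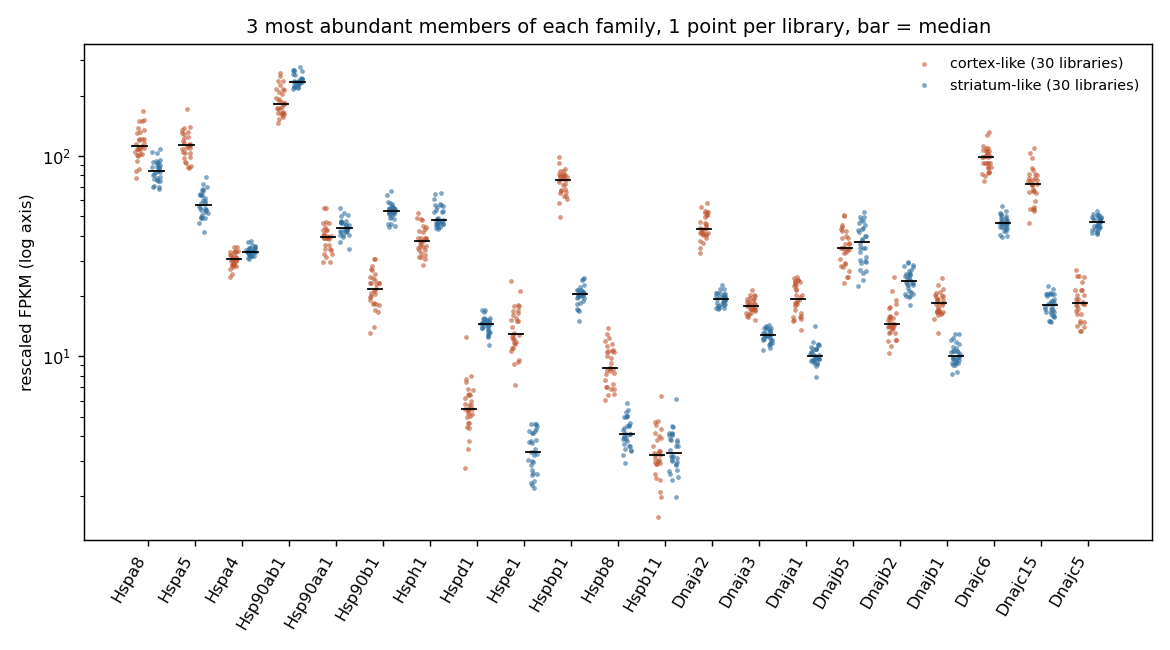
Rescaled FPKM on a log axis for the 3 most abundant members of each family, with 1 point per library (cortex-like in red, striatum-like in blue, 30 libraries each) and a bar at the median. Hsp90ab1 was the highest member in both classes, the classes of Hspa5, Hsp90b1, Hspe1, Hspbp1, Hspb8, Dnaja2, Dnaja3, Dnajb1, Dnajc6, Dnajc15 and Dnajc5 did not overlap, and 1 cortex-like value of Hspb11 at 0 is not drawn.

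The levels differed between the classes in both directions. Since the classes were formed from the data, these differences are given as a description, with no test. Of the 64 members, 16 were higher in every cortex-like than in every striatum-like library, where 16.9% of all 16076 entries did this, and 11 were lower in every one, where 19.3% of all entries did. The 16 are 25.0% and the 11 are 17.2% of the members, and the median log2 difference (cortex-like minus striatum-like) was -0.14 for the members and -0.06 for all entries. With the FPKM as deposited the counts were 17 and 3 (20.9% and 9.97% of all entries), and with quantile normalization 11 and 13 (14.3% and 20.6%). Among the libraries labelled Δ12/Δ12 alone (6 against 6), 22 members were higher in the cortex-like libraries with no overlap and 23 in the striatum-like. Of all entries, 27.7% and 31.8% did so. The 16 and 11 members above could not change direction there, since they were picked for not overlapping over all libraries.

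**Figure D2:**
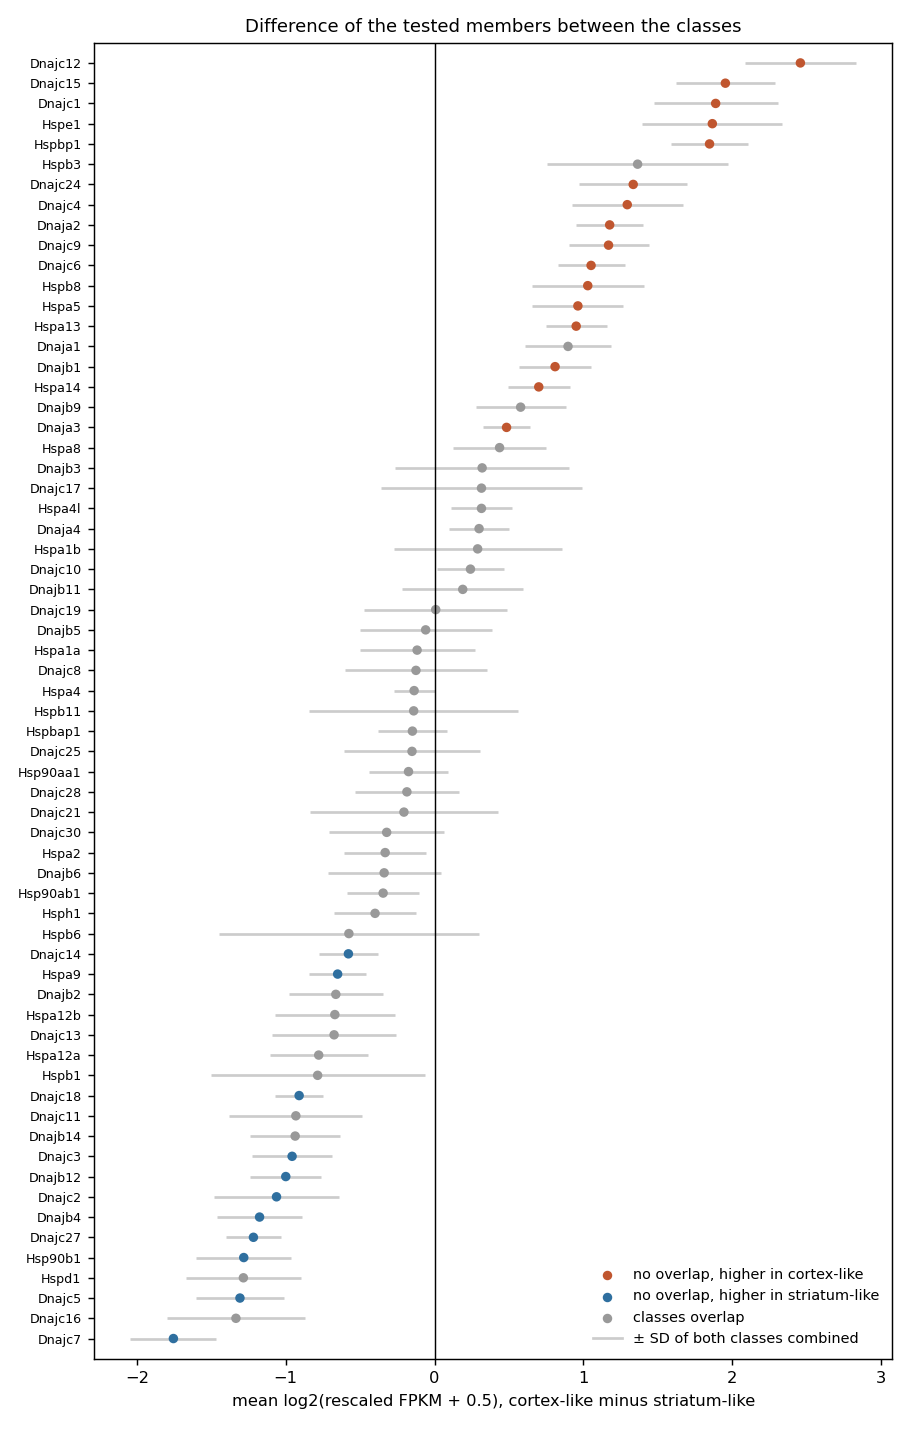
Mean log2(rescaled FPKM + 0.5) of the cortex-like minus that of the striatum-like libraries for the 64 tested members, with a line of ± the SD of both classes combined. Red and blue points are the 16 and 11 members whose classes did not overlap, from Dnajc12 at 2.46 to Dnajc7 at -1.75.

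Dnajc12 was the member most raised in the cortex-like libraries. This J protein, which serves the aromatic amino acid hydroxylases, ranged there from 17.1 to 53.0 rescaled FPKM with a median of 26.6, against 3.61 to 6.19 with a median of 4.60 in the striatum-like libraries, a log2 difference of 2.46. Dnajc15, a J protein of the mitochondrial inner membrane, ranged from 46.2 to 110 against 14.8 to 22.4 (1.95), and Dnajc1, a J protein of the ER membrane, from 16.4 to 36.2 against 4.40 to 9.63 (1.89). Hspbp1 (1.85), Hspe1 (1.87), Dnajc24, which takes part in diphthamide synthesis (1.33), Dnajc4 (1.29) and Dnaja2, a cytosolic partner of Hsp70 (1.18), completed the 8 largest log2 differences among members without overlap.

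At the other end was Dnajc7, which can carry clients between Hsp70 and Hsp90. It ranged from 7.83 to 18.1 rescaled FPKM in the cortex-like and from 32.6 to 45.0 in the striatum-like libraries, a log2 difference of -1.75. Dnajc5 (cysteine string protein), which guards the fusion machinery of synaptic vesicles, ranged from 13.3 to 26.8 against 41.0 to 53.2 (-1.31). Hsp90b1 (-1.28), the small GTPase with a J domain Dnajc27 (-1.22), Dnajb4 (-1.18), Dnajc2 (-1.06) and the ER lumen protein Dnajc3 (-0.96) followed. The ER membrane protein Dnajb12 ranged from 3.95 to 7.81 against 9.99 to 13.2 rescaled FPKM. In Dnajc16 (-1.33), Hspd1 (-1.28), Dnajb14 (-0.94) and Dnajc11 (-0.93) the classes overlapped. For Dnajc16 the library labelled cortex +/+ female 1 of the Δ12 line, which also had the fewest entries above 0 (14912), was at 15.4 against 4.23 for the next highest cortex-like library. Without the 7 libraries with fewer than 20000 entries above 0, all cortex-like, 16 members were higher and 15 lower with no overlap (19.3% and 22.6% of all entries), an alternative chosen after the data were seen.

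Some chaperones that work together or in the same part of the cell stood in opposite directions. The 5 pairs given here were picked after their values were seen. In 4 other pairs, Hspa5 and Hspa8, Hsp90ab1 and Hsp90aa1, Dnaja1 and Dnaja2, and Dnajc6 and Gak, the ratios of the classes overlapped, with 0.790 to 1.69 in the cortex-like and 0.515 to 0.900 in the striatum-like libraries for Hspa5 over Hspa8. Hspe1 ranged from 7.23 to 23.8 rescaled FPKM with a median of 13.0 in the cortex-like and from 2.21 to 4.61 with a median of 3.32 in the striatum-like libraries. Hspd1, the ring that Hspe1 closes, ranged from 2.77 to 12.5 with a median of 5.48, against 11.4 to 17.1 with a median of 14.5. The lid was thus the more abundant transcript in every cortex-like library, with a ratio of FPKM (Hspe1 over Hspd1) from 1.17 to 6.14, and the less abundant in every striatum-like library, with 0.149 to 0.354. Rescaling cannot change this ratio. Within the Δ12/Δ12 group this ratio was 1.88 to 3.09 in the 6 cortex-like and 0.153 to 0.290 in the 6 striatum-like libraries. The ratios could not overlap there, since they did not overlap over all libraries and the pair was picked with its values known. The entries of both genes (GRCm38.p4, chr1:55077835-55088243 for Hspd1 and chr1:55088132-55091307 for Hspe1) share 112 bases. The Hspd1 entry begins at the start of Hspd1 that had 0 matches, and the start whose sequence is shown lies within it. Whether the FPKM were computed by strand is not given in the sources used here.

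Hspa5 and Hsp90b1 (Grp94), the Hsp70 and the Hsp90 of the ER lumen, whose promoters hold the ER stress response element, also parted. Hspa5 ranged from 87.2 to 172 rescaled FPKM in the cortex-like and from 41.6 to 78.7 in the striatum-like libraries, and Hsp90b1 from 13.1 to 30.7 and from 44.3 to 67.2. The ratio of FPKM (Hsp90b1 over Hspa5) was 0.112 to 0.310 and 0.765 to 1.11. Dnajc1 and Dnajc3, J proteins of the ER, had a ratio (Dnajc1 over Dnajc3) of 3.59 to 13.5 in the cortex-like and 0.555 to 1.60 in the striatum-like libraries. The chaperones of the ribosome showed the same split. The ratio of Hspa14 to its J partner Dnajc2 was 2.08 to 13.2 and 0.779 to 1.55. For the vesicle chaperones, the ratio of Dnajc6 (auxilin, which uncoats clathrin vesicles with Hspa8) to Dnajc5 was 3.16 to 8.65 and 0.830 to 1.18. In each of the 5 pairs the ratios of the classes did not overlap.

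**Figure D3:**
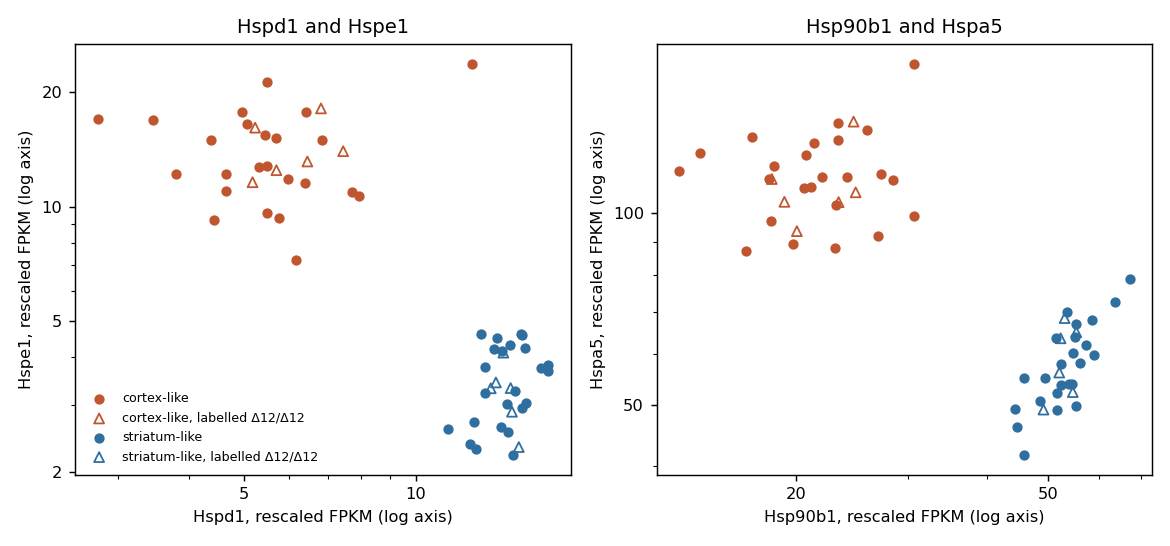
Hspe1 against Hspd1 and Hspa5 against Hsp90b1 in rescaled FPKM on log axes, with 1 point per library and triangles for the libraries labelled Δ12/Δ12. The classes form separate clouds in each panel, and the 6 cortex-like and 6 striatum-like Δ12/Δ12 libraries are part of the cloud of their class.

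Transcript length moved with these differences. The median log2 difference (cortex-like minus striatum-like) was 0.77 over the 2393 tested entries whose longest GENCODE M21 transcript is below 1000 nucleotides and -0.75 over the 2058 entries of 6000 nucleotides or more. Of the 3 members below 1000, Hspe1 had 1.87 and Hspb1 -0.79, and Hspb3 passed the minimum only through the cortex-like libraries. The median was 0.32 for the 11 members between 1000 and 2000, -0.18 for the 26 between 2000 and 4000, -0.15 for the 19 between 4000 and 6000, and -0.68 for the 5 longest. Hspe1 has 964 and Hspd1 2423 nucleotides. Of the members, 6 of the 19 between 4000 and 6000 and 2 of the 5 longest had a positive log2 difference. Dnajc15 (6193), Dnajc6 (5322) and Dnajc1 (5497) were among these. The part of length in these results was not tested.

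The cytosolic, ER and mitochondrial lists each held genes of both directions, and the counts stand beside the 16.9% of all entries that were higher and the 19.3% that were lower. Of the 11 heat-inducible cytosolic genes, 1 was higher (Dnajb1, the J protein of the heat shock response, 0.81) and 1 lower (Dnajb4) in every cortex-like library. Of the 9 ER genes 3 were higher (Hspa5, Hspa13 and Dnajc1) and 2 lower (Hsp90b1 and Dnajc3). Of the 9 mitochondrial genes 3 were higher (Hspe1, Dnajc15 and the J protein Dnaja3, 0.48) and 1 was lower (Hspa9, the mitochondrial Hsp70, -0.65). Outside the members, the chaperonin CCT and prefoldin, which fold actin and tubulin, moved mostly to one side. Of these 14 genes 8 were higher and 0 lower in every cortex-like library, from 0.84 for Cct7 to 2.54 for Pfdn5, while Cct8, a subunit of the same ring as Cct7, had a difference of -0.18. Of the 28 co-chaperones and exchange factors 6 were higher and 4 lower, among them Grpel1, the exchange factor of Hspa9 (1.98), and Bag3 (-1.56). Of the 5 clathrin and synaptic vesicle genes 1 was higher (Dnajc6) and 1 lower (Dnajc5), of the 3 muscle-type small heat shock genes that passed the minimum 1 was higher (Hspb8), of 12 other ER folding genes 2 were higher (Atf4, 1.40, and Sdf2l1, 1.35), and of the temperature and activity genes Cirbp, Rbm3 and Fos 1 was higher (Rbm3, 1.63).

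The members varied more among the cortex-like libraries. The SD of log2 values was wider there in 61 of 64 members, where it was in 87.9% of all 16076 entries. Over members with a mean of at least 5 rescaled FPKM in the class, the median SD was 0.25 in the cortex-like (45 members) and 0.14 in the striatum-like libraries (44 members), against 0.26 and 0.15 for all entries at this level. In the striatum-like libraries the widest member was Dnajb5, a cytosolic J protein, with an SD of 0.34 and values from 22.4 to 52.3 rescaled FPKM. Dnajc1 (0.24), Hspa12a (0.21) and Hspa5 (0.21) followed. In the cortex-like libraries Dnajc8 (0.45) and Dnajc11 (0.41) were the widest, from 4.60 to 20.1 and from 3.38 to 13.7 rescaled FPKM.

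To see whether the stress-regulated members rose and fell together, 12 correlations of log2(rescaled FPKM + 0.5) across libraries, 6 in each class, were tested by permutation (100000 resamples, two-sided, Benjamini-Hochberg adjustment over the 12). Libraries of 1 mouse number may share an animal, and both genes of a pair share the scaling of a library. In the 30 striatum-like libraries, Hspa5 and Hsp90b1 rose together, with r = 0.75 (permutation p = 1e-05, the smallest that 100000 resamples can give, adjusted p = 0.00012) and rho = 0.68 (permutation p = 7e-05, adjusted p = 0.0006). Without the 2 libraries farthest from the median of Hspa5, r was 0.65. In the 30 cortex-like libraries r was 0.16 (adjusted permutation p = 0.492) and rho 0.13 (adjusted p = 0.673), but on the FPKM as deposited r was 0.50 (adjusted permutation p = 0.00761) and passed. The difference between the classes was not tested.

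Hsph1 and Dnajb1, both targets of heat shock factor, had r = 0.51 (adjusted permutation p = 0.0155) and rho = 0.49 (adjusted p = 0.0217) in the striatum-like and r = -0.16 (adjusted p = 0.492) and rho = -0.10 (adjusted p = 0.697) in the cortex-like libraries. Hsph1 and Cirbp, the cold-inducible RNA-binding protein, were opposed in the striatum-like libraries, with r = -0.62 (permutation p = 0.00027, adjusted p = 0.00162), rho = -0.66 (adjusted p = 0.0006) and r = -0.60 without the 2 farthest libraries. On the FPKM as deposited this r was -0.081. In the cortex-like libraries r was -0.18 (adjusted permutation p = 0.492). Hsph1 and Hspa5 had r = 0.45 (adjusted permutation p = 0.0322) and rho = 0.49 (adjusted p = 0.0217) in the striatum-like and r = 0.41 (adjusted p = 0.0484) in the cortex-like libraries, where rho was 0.36 (adjusted p = 0.0979) and did not pass. Their r was 0.35 in the striatum-like and 0.34 in the cortex-like libraries without the 2 farthest libraries, where neither passed. Hsph1 and Hsp90aa1, the inducible Hsp90, had r = 0.46 (adjusted permutation p = 0.0293) in the cortex-like libraries, which fell to 0.30 without the 2 farthest, and 0.03 (adjusted p = 0.872) in the striatum-like ones. The striatum-like r was 0.51 on the FPKM as deposited (adjusted permutation p = 0.00761). For deviations from group means it was 0.41 (adjusted permutation p = 0.0440), and both passed. For Hsph1 and Fos, an immediate early gene, r was 0.22 (adjusted permutation p = 0.417) in the striatum-like and 0.06 (adjusted p = 0.832) in the cortex-like libraries.

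**Figure D4:**
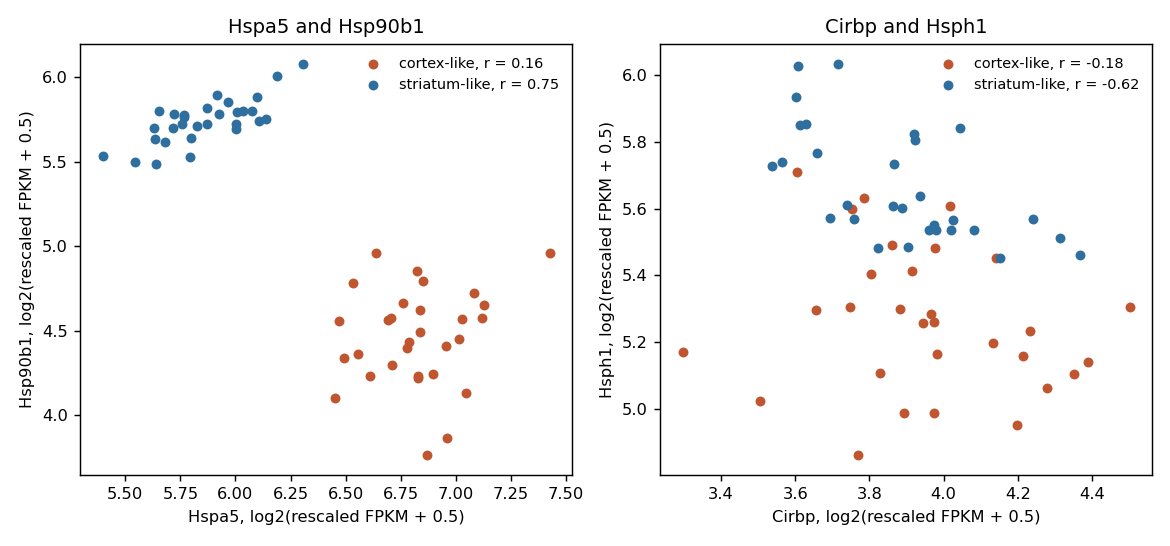
Hsp90b1 against Hspa5 and Hsph1 against Cirbp as log2(rescaled FPKM + 0.5), with 1 point per library and Pearson's r for each class of 30. The striatum-like libraries follow a rising line for Hspa5 and Hsp90b1 (r = 0.75) and a falling one for Cirbp and Hsph1 (r = -0.62). On the FPKM as deposited these were 0.85 and -0.081. The cortex-like libraries have r = 0.16 and -0.18 (0.50 and 0.19 on the FPKM as deposited).

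The comparison of KO/+ with +/+ mice asked what the loss of 1 Htt allele does to the chaperones. Htt itself was at 16.8 to 20.7 rescaled FPKM in the 6 +/+ and at 12.7 to 19.7 in the 6 KO/+ libraries labelled striatum (log2 difference -0.14, SE 0.11, adjusted p = 0.499), so that these libraries are called by their labels only. Tissue and sex went against the labels in many libraries, and whether genotype labels also stand on other libraries was not tested. All genotypes and the sex term of the fits are as labelled. In libraries labelled striatum, all striatum-like, limma called 1 of 63 tested members higher and 1 lower in KO/+, where 3.51% and 3.4% of all 15808 entries were called higher and lower. Hspa12a (chr19:58795751-58860984), a distant relative of Hsp70, was lower. It ranged from 18.9 to 23.6 rescaled FPKM with a median of 22.3 in +/+ and from 13.7 to 18.0 with a median of 17.1 in KO/+ libraries. The groups did not overlap, and the log2 difference was -0.39 (SE 0.07, n = 6 and 6, adjusted p = 0.00979). The call of limma was lost in the fit of all 30 libraries labelled striatum (adjusted p = 0.0916) and with a replicate block (0.0610).

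Hspb6 (Hsp20, chr7:30552178-30555443), a small heat shock protein of smooth muscle and heart, was higher in KO/+. It ranged from 0.855 to 1.26 rescaled FPKM with a median of 1.11 in +/+ and from 1.26 to 3.10 with a median of 1.82 in KO/+ libraries, with a log2 difference of 0.63 (SE 0.17, adjusted p = 0.0459). The highest +/+ and the lowest KO/+ library were both at 1.26. The interval of the deposited FPKM had a median half-width of 107% of the value, so that single values of this gene are imprecise. The call was lost in 10 of the 12 fits that left out a library. In the libraries labelled cortex, Hspa12a was at 16.3 to 19.4 in +/+ and 14.8 to 18.2 in KO/+, and Hspb6 at 0.654 to 2.33 and 0.564 to 2.60 rescaled FPKM. Whether the effects differed between the labelled tissues was not tested.

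Some markers of several cell types moved with these groups. The summed level of the 8 genes of striatal projection neurons was 1144 to 1558 rescaled FPKM in +/+ and 1620.1 to 2102 in the KO/+ libraries, and limma called 6 of the 8 higher. It also called Tmem212, 1 of 4 genes of ependyma (log2 difference 0.69), higher and Aqp4, 1 of 4 of astrocytes (-0.58), lower. The log2 differences of the 4 genes ran from 0.16 to 0.69 for ependyma. For astrocytes they ran from -0.58 to 0.14, so that these genes went in both directions. The genes of ependyma summed to 7.16 to 11.9 rescaled FPKM in +/+ and 10.2 to 15.9 in KO/+, and those of astrocytes to 109 to 147 and 99.0 to 139. The 4 mural cell genes (vessel walls) summed to 21.1 to 25.4 and 19.5 to 22.2, with 0 of 4 called (0 at an unadjusted p under 0.05). The part of cell composition in the results of Hspa12a and Hspb6 was not tested. Dnajb2 (log2 difference -0.31, adjusted p = 0.0641), Dnaja4 (0.22, 0.0685) and Dnajb5 (0.52, 0.0770) came next and did not pass. No co-chaperone, CCT, prefoldin or ER folding gene was called by limma (0 of 28, 0 of 14 and 0 of 12, with 4, 1 and 2 at an unadjusted p under 0.05).

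In the libraries labelled cortex, limma called 0 of 63 members between KO/+ and +/+, where 0.0885% of all entries were called, and 8 members had an unadjusted p under 0.05, 7 of them lower in KO/+. These are 12.7% of the members, against 13.9% of all entries at this p. The nearest was Hspd1, at 14.5 to 16.6 rescaled FPKM in +/+ and 11.4 to 14.9 in KO/+ (log2 difference -0.22, SE 0.07, adjusted p = 0.206).

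In the Δ12 line the comparison asked whether the shortened huntingtin alters the chaperones. For Δ12/+ against +/+, where all libraries were cortex-like, limma called 0 of 64 members in the libraries labelled striatum (0.00663% of all entries) and 0 of 64 in those labelled cortex (0.0662%), with 1 and 4 members at an unadjusted p under 0.05 (1.56% and 6.25% of the members, 3.22% and 8.37% of all entries). The 1 member among those labelled striatum was Dnajc11, at 3.38 to 4.43 rescaled FPKM in +/+ and 3.88 to 5.98 in Δ12/+ (log2 difference 0.33, SE 0.11, adjusted p = 1.00), and the nearest among those labelled cortex was Dnajb6, an inhibitor of polyglutamine aggregation, at 3.77 to 8.49 and 7.91 to 12.6 (0.69, SE 0.19, adjusted p = 0.312).

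For Δ12/Δ12 against +/+ in the libraries labelled striatum, limma called 9 of 64 members higher and 10 lower, where 14.7% and 13.6% of all 15467 entries were called. The split depended on the scaling. Without rescaling, 4 were called higher and 13 lower (26.6% of members and 27.7% of all entries in either direction). After quantile normalization 9 and 5 were called (21.9% and 23.5%). The 3 females labelled Δ12/Δ12 were striatum-like and all other libraries of this comparison cortex-like, so that genotype and class cannot be told apart in the females. When any female of either group was left out, 0 or 1 members were called (at most 0.213% of all entries). Without +/+ male 1 there were 30 (39.9% of all entries). In the females labelled Δ12/Δ12, each of the 10 called members with the smallest adjusted p lay outside the range of +/+. Hspbp1 was at 17.1, 19.6 and 20.6 rescaled FPKM in the Δ12/Δ12 females and at 65.1, 72.1 and 80.8 in the males, against 58.3 to 81.7 in the 6 +/+ libraries. Hspd1 was at 13.5, 14.2 and 14.6 in the females, at 5.17, 6.81 and 7.45 in the males, and at 4.38 to 7.94 in +/+. In the 3 males, which were of the class of the +/+ libraries, both genes lay within the range of +/+. The other members among the 10 with the smallest adjusted p were Hspa12a (log2 difference 0.48), the ER membrane protein Dnajb14 (0.71), Hspa14 (-0.39), Dnajc6 (-0.66), Dnajc4 (-0.81), Hspa5 (-0.54), Dnajc27 (0.73) and Dnajc11. Males of Hspa5 and Dnajb14 also lay within the range of +/+. Dnajc6 was at 83.0, 92.3 and 105 rescaled FPKM in the males, against 99.6 to 112 in +/+. Dnajc27 was at 7.09, 8.17 and 8.87 in the males, against 6.45 to 7.97. The lowest male of Hspa14 and of Dnajc4 was below +/+.

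Dnajc11 (chr4:151933691-151982137), a mitochondrial J protein tied to the complex that shapes the cristae, and Hspa12a were above +/+ in every male too. Dnajc11 was at 7.10, 7.50 and 7.52 rescaled FPKM in the Δ12/Δ12 males and at 9.25, 11.5 and 12.2 in the females, against 3.38 to 4.43 with a median of 3.92 in the 6 +/+ libraries. All 6 Δ12/Δ12 libraries were above all 6 of +/+, the cortex-like males included, and the log2 difference was 1.12 (SE 0.14, adjusted p = 0.0152). With the expression class as a further covariate it was 0.78 (SE 0.12, adjusted p = 0.0446), and Dnajc11 was then the 1 member called. That estimate rests on the males, since the added term takes up the females labelled Δ12/Δ12. In the males alone, a fit chosen after the data were seen, it was 0.78 with an adjusted p of 0.218. Hspa12a was at 11.9, 11.9 and 12.4 rescaled FPKM in these males and at 16.0, 16.0 and 16.9 in the females, against 9.14 to 11.7 in +/+. Its log2 difference was 0.48 (SE 0.10, adjusted p = 0.0292), and with the class term 0.32 (adjusted p = 0.226), which did not pass. In the libraries labelled cortex, Dnajc11 did not separate the groups, with 4.04 to 11.2 in Δ12/Δ12 and 4.27 to 13.7 in +/+. There limma called 0 of 64 members (0.924% of all entries), and 17 had an unadjusted p under 0.05 (26.6%, against 38.1% of all entries), of which Dnajb4 had the smallest adjusted p (0.0697).

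**Figure D5:**
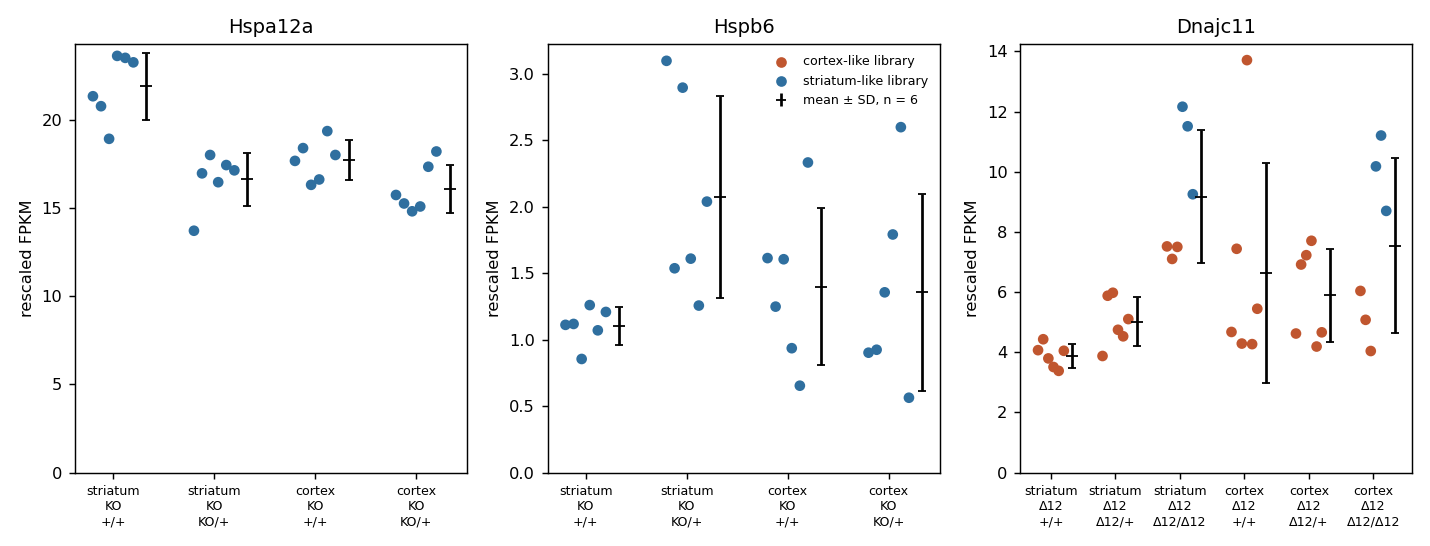
Rescaled FPKM of Hspa12a and Hspb6 in the KO line and of Dnajc11 in the Δ12 line by labelled group, with 1 point per library, coloured by class, and the mean ± SD (n = 6) beside each group. Among libraries labelled striatum, Hspa12a separated KO/+ from +/+ and Dnajc11 Δ12/Δ12 from +/+, and neither did so in the libraries labelled cortex.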

How the data were processed

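RNA-Seq was done on 60 libraries labelled striatum or cortex of 3-month-old mice. The submitters' processing notes name bcl2fastq 2.20, Trimmomatic 0.30, TopHat2 2.0.14, SAMtools 1.3 and HTSeq 0.6.1p1 with the genome GRCm38.p4, and libraries were directional after removal of ribosomal RNA. The authors deposited 1 table of FPKM per library, with an interval and a status for each of 47597 entries, and the program that made the FPKM is not given in the sources used here. The tables hold no counts, so the depth is unknown, and the deposited interval is the only measure of precision per value. The 23 entries without the status OK in every library were left out, and 2 marker lists are not reported here.

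FPKM were divided by median-of-ratios factors from the 13235 entries above 0 in every library. Each labelled comparison (6 against 6 libraries) was fitted with limma 3.58.1 in R 4.3.3 on log2(rescaled FPKM + 0.5), which understates the change of low genes, over all entries with a mean of at least 0.5 in its libraries. Labelled sex was a covariate, the test was two-sided, and calls were made at an adjusted p (Benjamini-Hochberg, over all entries tested) under 0.05. The title and the genotype label of 1 KO/+ library disagree on its line, and the genotype label was used. The labels number the mice 1 to 3 in each sex, and p-values measure the spread between these libraries. The Δ12/+ and Δ12/Δ12 comparisons share their +/+ libraries. Entries at 0 in every library were not tested.

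Libraries above and below 100 FPKM of Slc17a7 formed the classes, which were described and not tested. Correlations within a class were tested by permutation (Python 3.11.15, pandas 2.3.3, SciPy 1.17.1), and figures were drawn with matplotlib 3.10.9. The fits were tested on simulated data. Named were the called members (at most 10 per comparison), the 8 non-overlapping members with the largest class difference on each side, the 3 highest of each family, the 8 with the widest spread in each class, and members of the compartment lists. The members and lists were chosen with earlier results of these data known. Alternatives were FPKM as deposited, quantile normalization, other pseudocounts, no filter, no covariate, a replicate block, a class covariate, a fit over all 30 libraries of a labelled tissue, another threshold, entries of any status and leaving out each library. Scaling within a comparison, leaving out libraries with few entries and the fit on males alone were added after the data were seen.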

Additional observations from a re-analysis of the deposited data

Results flagged for a closer look

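In each of the 10 labelled groups of 6, the highest and lowest library were compared with the rest for 21 series of values (named members and summed families), which made 210 sets. In 12 sets the gap between 1 library and its nearest neighbour was, as a share of the group's range, above Dixon's critical value for 6 libraries, where chance alone gives about 1 in 20 sets. The reason for each was not tested, and all values are rescaled FPKM.

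Tissue and sex are given as labelled, and all +/+ and Δ12/+ libraries of the Δ12 line were cortex-like and all of the KO line striatum-like. The library labelled cortex +/+ female 1 of the Δ12 line, which also had the fewest entries above 0 of all libraries (14912), stood apart for the mitochondrial members Dnajc11, at 13.71 against 7.439 in the next library, and Hspd1, at 12.53 against 6.403. Among the libraries labelled striatum of the same line, +/+ male 1 was high for Hspd1 (7.944 against 5.443) and +/+ female 3 for the summed Dnaja genes (105.1 against 89.97).

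Among Δ12/+ mice, male 3 labelled cortex was high for Hspa5 (171.7 against 115) and for the summed Hspa genes (452.7 against 366.6), female 1 labelled cortex for Hspa12a (11.71 against 9.835), and female 3 labelled striatum for the summed Dnajc genes (460.3 against 389.7). In the KO line, KO/+ male 3 labelled striatum was high for Dnajc6 (56.48 against 45.17), and KO/+ male 1 labelled striatum was low for Hspa12a (13.72 against 16.47), in the group where limma called this gene lower. The +/+ female 1 labelled cortex was high for Hspbp1 (24.29 against 21.51), and +/+ male 3 labelled striatum for Hsph1, the only gene of its family (52.96 against 46.94).

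No member had groups that separated in opposite directions in the libraries labelled striatum and cortex (0 members).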

How the results depend on the processing

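In the Δ12/Δ12 comparison labelled striatum limma called 19 members. It called 9 with no filter (12.7% of members, 7.88% of all entries), 1 without a covariate (0.0582% of all entries), 0 with the replicate block (0.0323%), 32 in a fit of all 30 libraries labelled striatum (50.7%), 30 at an adjusted p under 0.1 (47.8%), 1 with class as a covariate (0.136%), 32 without libraries with fewer than 20000 entries above 0 (46.2%) and 0 in males alone (0.0133%). Leaving out 1 library gave 0 to 30 calls, with 30 without +/+ male 1 (39.9% of all entries). When any female of either group was left out there were 0 or 1 (at most 0.213%).

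For KO/+ labelled striatum limma made 2 calls (6.91% of all entries). The FPKM as deposited gave 1 (1.97% of all entries) and no filter 1 (3.83%). The replicate block gave 0 (1.91%, Hspa12a adjusted p = 0.0610, Hspb6 0.112). The fit of all 30 libraries gave 0 (0.849%, Hspa12a 0.0916), and an adjusted p under 0.1 gave 5 (11.7%). Leaving out 1 library gave 1 to 4 calls, with 4 without +/+ male 3 (7.86%) or KO/+ male 2 (6.41%). For Δ12/Δ12 labelled cortex (0 calls), the fit of all 30 libraries gave 25 (49.7% of all entries) and an adjusted p under 0.1 gave 10 (29.2%). Leaving out 1 library gave 0 to 10 there, with 10 without +/+ male 2 (24.5%). For Δ12/+ labelled cortex (0 calls), the fit of all 30 libraries gave 1 (0.33% of all entries). In the other 3 comparisons leaving out 1 library gave 0 calls. Same-numbered libraries had correlations of deviations from -0.22 to 0.16, above 0.1 in at most 2 of 6 pairs, so the numbers were not taken as pairs. The cause of these shifts was not tested.

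The members whose classes did not overlap numbered 27, and 45 among the Δ12/Δ12 libraries alone, where groups of 6 are compared. Of the correlations, Hsph1 with Dnajb1 in cortex-like libraries turned to 0.29 as deposited and 0.064 without the 2 farthest libraries. Hsph1 with Hsp90aa1 was 0.30 without the 2 farthest in cortex-like libraries. In striatum-like ones it was 0.51 as deposited and 0.41 for deviations from group means, which both passed, and -0.20 without the 2 farthest. Hspa5 with Hsp90b1 in cortex-like libraries was 0.50 as deposited, which passed, and -0.10 without the 2 farthest. Hsph1 with Hspa5 was 0.34 (cortex-like) and 0.35 (striatum-like) without the 2 farthest. Hsph1 with Cirbp was 0.19 (cortex-like) and -0.081 (striatum-like) as deposited, and Hsph1 with Fos in cortex-like libraries -0.11 without the 2 farthest. None of the 12 genotype differences that were rerun changed sign under their alternatives. The 16 class differences kept their sign on the FPKM as deposited. Among the Δ12/Δ12 libraries alone their sign could not change, since these members were picked for not overlapping over all libraries. The deposited intervals of low members such as Hspb6 and Hspb3 were among the widest.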
